A study of Rattus norvegicus with 15 samples.

Results

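The Hox genes and the other genes that the gene symbols place among the main homeobox families were followed in H9c2 cells, together with the T-box and GATA factors that share their developmental roles. Members were chosen by symbol alone (Hox, Meis, Pbx, Pknox, Irx, Tgif, Msx, Prrx, Tshz, Zfhx, Pitx, Dlx, Lhx, Alx, Cux, Shox2, Barx, En, Gbx, Nkx, Tbx and Gata), and 49 of the 11574 genes of the count table met this rule. They comprised 14 Hox genes, 11 genes of the TALE class, 9 of the paired, NK-like and LIM classes, 6 of the CUT and zinc finger classes, and 9 T-box and GATA genes. The last 9 encode proteins without a homeodomain, so that the name homeobox holds for 40 of the 49. No Alx, Barx, En, Gbx, Nkx or Hoxa gene was among the genes analysed here.

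H9c2 is a myoblast line derived from the rat heart ventricle, and 15 samples of it were sequenced, 3 in each of 5 groups. T0 cells were harvested without retinoic acid (RA) after attachment in 10% fetal bovine serum (FBS), whereas T7-RA and T14-RA cells were then kept in 1% FBS for 7 or 14 days, and T7+RA and T14+RA cells received all-trans RA at 1 μM daily over the same days. RA was dissolved in DMSO, and the labels do not say whether the cultures without RA received DMSO. Serum fell when the time course began, so that culture time and serum cannot be told apart, and the titles name H9c2 throughout. The cell line tag of the labels instead counts upward from H9c2 outside T0, and it was read as a fill error.

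Homeodomain proteins bind short AT-rich sites, and Hox proteins, which are laid out along their clusters in the order of their use along the body axis, gain specificity by pairing with TALE proteins such as Pbx and Meis. Retinoic acid bound to its nuclear receptors is a classical inducer of Hox genes in the embryo, where genes at the 3′ ends of the clusters respond earliest. In mesenchyme, Prrx1 and Prrx2 are paired-type factors of limb and craniofacial connective tissue, and in the heart Tbx18 marks the epicardium and the sinus node while Gata4 and Gata6 act in cardiac muscle.

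No Hox gene was among the 3 members called lower with RA at an adjusted p of 0.001 (6.12%, against 3.07% of all genes). At 0.05, 9 members passed (18.4%, against 14.7% of all genes), 8 of them lower, with Cux2, Pknox2, Tshz3 and Zfhx3 among these. Of the 14 Hox genes, 11 averaged under 10 counts per library, which limits what could be detected. Prrx2, Prrx1 and Tbx18 passed an adjusted p of 0.001 for RA, all 3 lower with RA, at 0.33, 0.48 and 0.59 times the level of the cultures without it (log2 changes of −1.62 ± 0.20, −1.05 ± 0.14 and −0.76 ± 0.15, SE). No member rose with RA at that threshold, and of the 14 Hox genes only Hoxb4 passed the looser adjusted p of 0.05, at a log2 change of 1.21 ± 0.41. Prrx1 was 5.00-fold higher at day 14 than at T0 in the additive model, and Cux1 and Zfhx3 were lower, while the Prrx1 levels of T7+RA overlapped those of T0.

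The 250 bases upstream of the RefSeq start site (assembly GRCr8, not the build of the counts) are shown for these 3 genes, because they are the members that moved together with RA. Capitals mark a match to a retinoid receptor hexamer, AGGTCA or AGTTCA, on either strand, and each sequence reads 5′ to 3′ on the strand of its gene.
Prrx1, chr13:78204074-78204323, minus strand: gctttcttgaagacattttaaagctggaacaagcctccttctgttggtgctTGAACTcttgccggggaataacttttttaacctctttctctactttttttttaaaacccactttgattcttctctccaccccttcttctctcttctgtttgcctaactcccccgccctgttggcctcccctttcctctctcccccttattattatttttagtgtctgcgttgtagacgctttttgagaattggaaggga
Prrx2, chr3:34530081-34530330, plus strand: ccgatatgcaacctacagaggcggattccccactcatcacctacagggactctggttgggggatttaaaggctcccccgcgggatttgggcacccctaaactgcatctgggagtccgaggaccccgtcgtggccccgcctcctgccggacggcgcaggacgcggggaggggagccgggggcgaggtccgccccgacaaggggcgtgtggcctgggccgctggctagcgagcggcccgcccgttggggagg
Tbx18, chr8:97559966-97560215, minus strand: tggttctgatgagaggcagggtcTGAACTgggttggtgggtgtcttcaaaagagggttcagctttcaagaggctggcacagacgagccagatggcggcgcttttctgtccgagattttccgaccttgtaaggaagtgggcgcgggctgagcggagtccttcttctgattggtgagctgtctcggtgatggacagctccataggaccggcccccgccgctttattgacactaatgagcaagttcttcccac
The Prrx1 and Tbx18 windows each held TGAACT, the reverse complement of AGTTCA, starting at base 52 and base 24 of the window, and the Prrx2 window held neither hexamer. AGTTCA was found in 12.2% of 33465 promoter windows of the same length and in 4 of the 31 members with an entry (Gata2, Hoxd13, Prrx1 and Tbx18). AGGTCA was found in 14% of windows and in 3 members (Dlx1, Hoxd10 and Hoxd4). The member windows had a median GC content of 67.2%, against 51.2% for all windows, so that these shares are not for windows of like composition, and the Hoxb and Hoxc genes were not searched. A search for direct repeats also took GGGTCA and GGTTCA as hexamers, which on their own are not marked in the sequences above. None of these 31 members held such a repeat spaced by 1, 2 or 5 bases, which 0.194%, 0.137% and 0.326% of all windows did. A match of this kind is a description of letters and no measured binding site.

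Most members were expressed at a low level. The libraries held 508397 to 1030820 counts, so that 1 count was worth 0.965 to 2.10 CPM, the unit of level used here, in which counts are scaled to a common library size by the trimmed mean of M values (TMM). Of the 49 members, 29 averaged under 10 counts per library, 11 averaged 10 to 30, and 9 averaged at least 30. All 49 had passed the authors' requirement of more than 20 counts summed over the libraries, with sums from 25 to 1011. Among Hox genes 11 of 14 averaged under 10 counts, and for these the SE of the log2 change with RA ran from 0.28 to 0.74, which limits what could be detected at this depth. Per kilobase of the gene size listed with the counts, whose definition is not given in the sources used here, Prrx1 stood highest with 80.4 CPM per kb, ahead of Prrx2 with 42.7, and Pbx3 reached 30.8. Hoxd9 led the Hox genes with 14.9 CPM per kb, and Cux2 was lowest with 0.503.

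The members together took a smaller share of all counts with RA. Without RA their share was 0.118 to 0.140% at T0, 0.108 to 0.122% at day 7 and 0.121 to 0.131% at day 14, against 0.0922 to 0.101% in T7+RA and 0.0825 to 0.10% in T14+RA. The RA libraries lay below those without RA on both days. Without Prrx1, Prrx2 and Tbx18 the summed level overlapped at day 7 (836 to 925 CPM in T7-RA and 792 to 870 in T7+RA) and did not at day 14 (886 to 974 CPM in T14-RA and 693 to 840 in T14+RA). In such bulk samples, fewer cells of a type and less RNA per cell cannot be told apart.

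The RA comparison asks which genes respond to RA beyond culture time, and it was estimated in an additive model with T7, T14 and RA terms. At an adjusted p of 0.001 in edgeR's quasi-likelihood test, 3 members were lowered (6.12%), where 3.07% of all genes were. None was raised, where 3.33% of all genes were. At an adjusted p of 0.05, 9 members passed (18.4%, against 14.7% of all genes), 8 of them lower and 1 higher with RA. Within day 7, 1 member passed 0.001 (2.04%, against 3.17% of all genes) and 3 passed 0.05 (6.12%, against 7.41%). Within day 14, 2 passed 0.001 (4.08%, against 4.81%) and 5 passed 0.05 (10.2%, against 11.2%), so that within each day the members lay near or below the background. The median log2 change with RA was −0.17 over the members and −0.01 over all genes. At an unadjusted p under 0.05 there were 13 members, 3 higher and 10 lower, and limma and DESeq2 raised none at an adjusted p of 0.001 either. The sign of the RA change was the same on both days for 32 members, 21 lower and 11 higher. This count and that at the unadjusted p have no share over all genes beside them and are descriptions only.

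**Figure D1:**
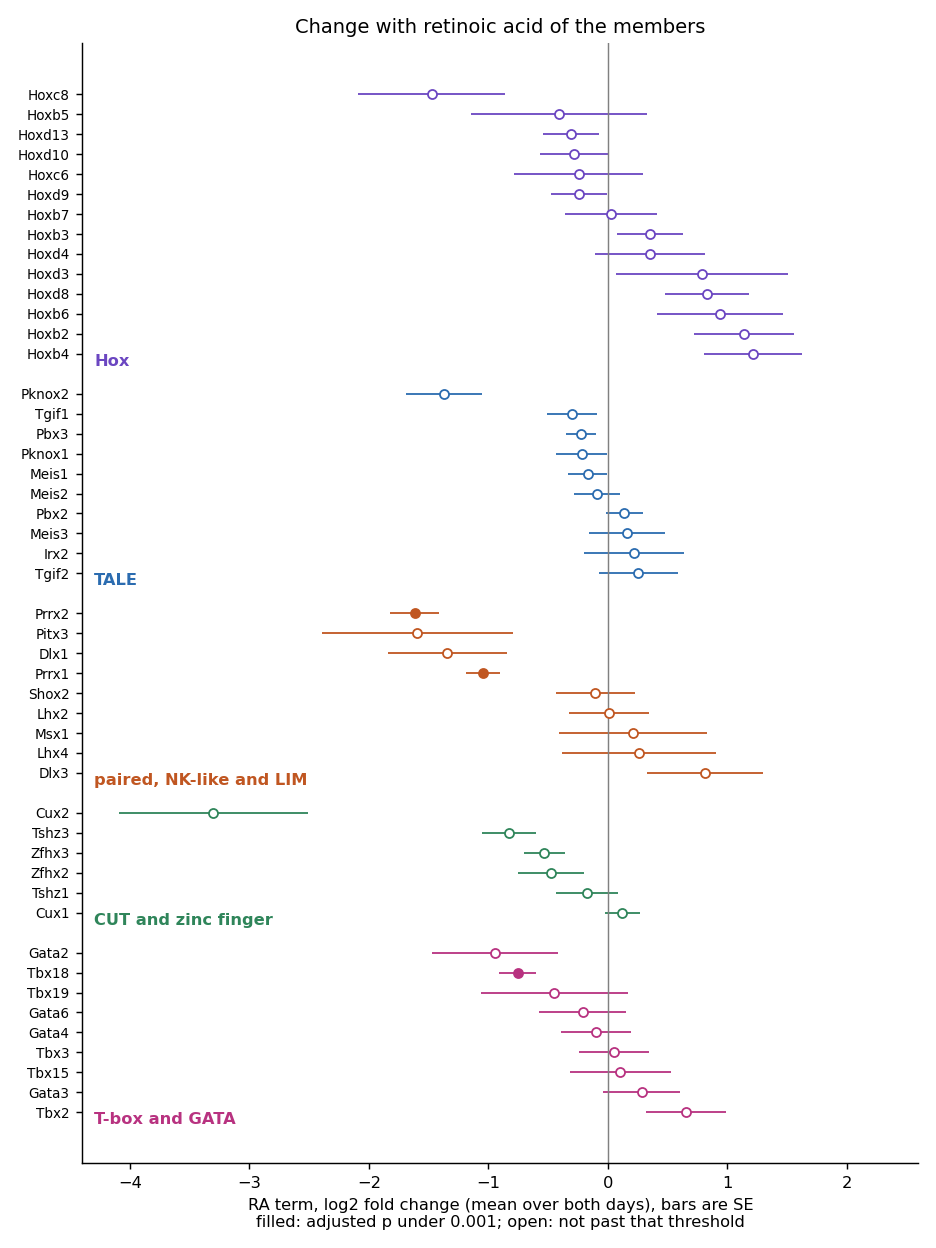
Log2 change with RA of the members reported here (horizontal axis, additive model over both days), grouped by class, with the standard error as a bar. Filled points passed an adjusted p of 0.001. The 3 filled points, Prrx2, Prrx1 and Tbx18, lie left of 0, and 8 of the 14 Hox genes lie right of it with wide bars. The point of Cux2 rests on 27 counts and is no bound.

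Prrx1 and Prrx2 are close relatives that both fell with RA. Without RA, Prrx1 measured 31.7, 18.8 and 29.3 CPM at T0, 83.5, 87.4 and 91.5 at day 7, and 117, 117 and 144 at day 14. With RA it measured 22.8, 40.3 and 30.9 CPM at day 7 and 75.2, 56.6 and 88.8 at day 14. No +RA library reached the −RA libraries of its day, and the T7+RA range overlapped that of T0. The log2 change with RA was −1.47 ± 0.22 at day 7 (0.36 times, adjusted p = 5.31e-07) and −0.77 ± 0.18 at day 14 (0.59 times, adjusted p = 0.00111). The day 14 value lay at the threshold of 0.001 and passed it in 6 of 23 alternatives, leaving out each library among them.

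Prrx2 started high, at 89.7, 124 and 96.4 CPM in T0. Without RA it then measured 52.5, 49.7 and 26.1 CPM at day 7 and 76.9, 81.5 and 69.4 at day 14. With RA the levels were 15.7, 20.1 and 22.3 CPM at day 7 and 11.6, 28.3 and 21.8 at day 14. The RA libraries again lay below the others of their day, by a log2 change of −1.17 ± 0.29 at day 7 (adjusted p = 0.00427) and −1.98 ± 0.27 at day 14 (0.25 times, adjusted p = 2.17e-08). Over both days the adjusted p was 6.41e-08 for Prrx1 and 5.33e-09 for Prrx2, and both calls held in every alternative run, leaving out each library included. The day 7 call of Prrx2 at 0.05 was lost without T7-RA replicate 1 (adjusted p = 0.0695).

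**Figure D2:**
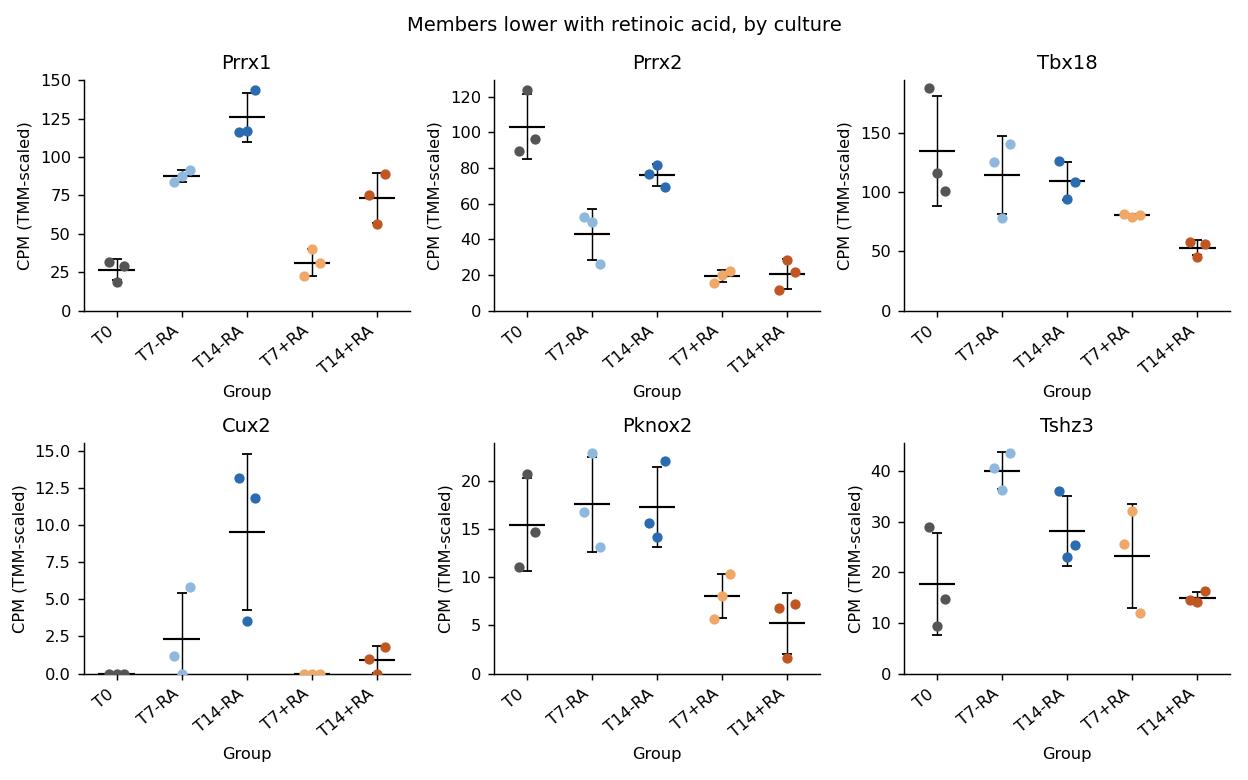
CPM of 6 members in each of the 15 libraries (points), with the group mean and SD as bars, by group. Prrx1 stands at 117 to 144 CPM in T14-RA and 56.6 to 88.8 in T14+RA. The 6 were picked as members lower with RA, so that their T14+RA points lying below the T14-RA points is no separate result.

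The balance between the 2 Prrx genes differed between T0 and every later group. Prrx1 held 13.2 to 26.1% of the Prrx counts of a library in T0, and its highest 95% Wilson bound there was 36.2%. In all other groups the share was 58.1 to 86.7%, and the lowest bound of any of these 12 libraries was 40.7%. The share was 61.4 to 77.8% in T7-RA and 58.1 to 66.7% in T7+RA, which overlapped. It was 58.9 to 67.5% in T14-RA and 66.7 to 86.7% in T14+RA, which also overlapped. These intervals cover counting error only, since reads without molecular identifiers are not independent molecules.

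**Figure D3:**
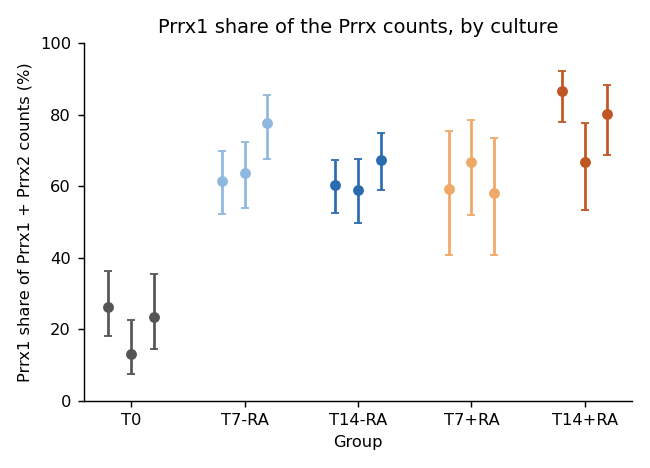
Share of Prrx1 in the sum of Prrx1 and Prrx2 counts (percent, vertical axis) for each library, by group, with 95% Wilson intervals. The 3 T0 libraries lie between 13.2 and 26.1%, and the other 12 lie above 58%.

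Among T-box factors Tbx18 carried the most counts of any member, 1011 in sum. Its levels without RA were 188, 116 and 101 CPM at T0, 125, 77.9 and 141 at day 7, and 126, 93.9 and 108 at day 14. With RA they were 81.2, 79.2 and 80.6 CPM at day 7 and 57.9, 45.6 and 56.2 at day 14. The groups overlapped at day 7 and did not at day 14, where the log2 change was −1.04 ± 0.21 (0.49 times, adjusted p = 0.000356). At day 7 it was −0.51 ± 0.20 (adjusted p = 0.121). The call over both days (adjusted p = 0.000382) was close to the threshold: it was lost in limma-voom and when T7-RA replicate 1 or 3, T14-RA replicate 1 or 3, or T14+RA replicate 1 or 3 was left out, with adjusted p up to 0.00234. The call at day 14 was lost in limma-voom and without T14-RA replicate 1 or 3 or any 1 T14+RA library, with adjusted p up to 0.0107.

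The remaining T-box and GATA genes did not pass either threshold for RA. Gata4, a defining factor of cardiac muscle, had a log2 change of −0.10 ± 0.29 with RA (95% interval −0.67 to 0.48), and it measured 6.90 to 21 CPM in T0 and 10.9 to 14 in T14+RA. Gata6 changed by −0.21 ± 0.36, Tbx3 by 0.05 ± 0.29 and Tbx2 by 0.66 ± 0.34. Gata2 was at −0.95 ± 0.53 and Gata3 at 0.28 ± 0.32. Tbx19, with 32 counts in all, was the lowest of the class.

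Among the TALE genes, which encode Hox cofactors and their relatives, no member passed the stricter threshold with RA. Pknox2, a Meis relative, measured 16.7, 22.8 and 13.1 CPM in T7-RA and 5.70, 8.06 and 10.3 in T7+RA. Its day 14 levels were 15.6, 14 and 22 CPM without RA and 6.75, 1.57 and 7.25 with it. Again every RA library lay below those without RA, and the log2 change was −1.37 ± 0.32 with an adjusted p of 0.00106, just outside the stricter threshold. Pbx2 and Pbx3 had log2 changes of 0.14 ± 0.16 and −0.22 ± 0.12 that passed neither threshold. Meis1, Meis2 and Meis3 lay at −0.17 ± 0.16, −0.09 ± 0.19 and 0.16 ± 0.31. Irx2 had the fewest counts of the class, 73.

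Of the 6 CUT and zinc finger members, 3 passed the looser threshold with RA, all lower, where 14.7% of all genes passed it in either direction. Tshz3, a teashirt zinc finger factor of smooth muscle and neural development, measured 40.6, 36.3 and 43.6 CPM in T7-RA and 25.7, 32.2 and 12 in T7+RA. At day 14 it measured 36.0, 23.0 and 25.4 CPM without RA and 14.5, 14 and 16.3 with it. The groups did not overlap, and the log2 change was −0.83 ± 0.23 (adjusted p = 0.00614). Zfhx3, a large zinc finger homeobox factor, had a log2 change of −0.53 ± 0.17 (adjusted p = 0.0313). That call was lost in limma, in DESeq2, with thinned counts, and without T7-RA replicate 3, T14-RA replicate 1 or 3, T7+RA replicate 1 or any 1 T14+RA library, with adjusted p up to 0.171.

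Cux2 was close to absent outside the day 14 cultures without RA. It had no count in T0 or T7+RA. The 3 libraries of T7-RA held 1, 0 and 4 counts, those of T14-RA 11, 2 and 7, and those of T14+RA 1, 0 and 1. The T14+RA level was 0.0894 times that of T14-RA from 2 against 20 counts, with a 95% counting interval of 0.0101 to 0.368. The adjusted p for RA was 0.0121 at day 14 and 0.00161 over both days. The day 14 call at 0.05 was lost without T14-RA replicate 1 or T14+RA replicate 1 or 2, with adjusted p up to 0.11. Its paralogue Cux1 had a log2 change with RA of 0.12 ± 0.14 (adjusted p = 0.68).

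The RA libraries lay below the others on both days for 5 members (10.2%), Prrx1, Prrx2, Pknox2 and Tshz3 among them. This was so for 5.20% of all genes. They lay above on both days for Hoxb2 and Hoxb4 (4.08%), against 4.95% of all genes. The RA change did not differ between the days for any member at an adjusted p of 0.05 in edgeR, where 0.743% of all genes passed. Neither form of limma called one, and DESeq2, which called none, gave an adjusted p for only 9 of the 49 members. Prrx1 was the only member with an unadjusted p under 0.05 for the difference, at a log2 value of 0.69 ± 0.29, day 14 minus day 7 (adjusted p = 0.438). For Prrx2 the difference was −0.81 ± 0.42, with a 95% interval of −1.63 to 0.00.

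Hox genes were represented by Hoxb2 to Hoxb7, Hoxc6 and Hoxc8, and 6 Hoxd genes. Hoxb4, near the 3′ part of its cluster, measured 1.19, 2.69 and 2.9 CPM in T7-RA and 8.55, 13.4 and 6.86 in T7+RA. At day 14 it measured 7.21, 5.31 and 6.77 CPM without RA and 10.6, 9.43 and 10.9 with it. The groups did not overlap on either day, and the change at day 7 (log2 2.06 ± 0.65, adjusted p = 0.0357) rested on 1 or 2 counts in each T7-RA library. At day 14 it was 0.65 ± 0.53 (adjusted p = 0.551). The call over both days at 0.05 was lost in DESeq2, with thinned counts, and without any 1 T7-RA library, T14-RA replicate 2, T7+RA replicate 1 or 2, or T14+RA replicate 1, with adjusted p up to 0.129. That at day 7 was lost with thinned counts and without any 1 T7-RA library or T7+RA replicate 1 or 2, with adjusted p up to 0.239. The T0 libraries, at 4.14 to 5.63 CPM, lay between the 2 day 7 groups.

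Hoxb2, the most 3′ Hoxb gene measured, showed 2.39, 2.69 and 4.36 CPM in T7-RA and 8.55, 6.71 and 8.57 in T7+RA. Its day 14 levels were 4.80, 7.08 and 5.08 CPM without RA and 14.5, 11 and 7.25 with it. All RA libraries lay above the others of their day, at a log2 change of 1.14 ± 0.42 and an adjusted p of 0.0538, which missed the looser threshold. Hoxb3 and Hoxb6 were at 0.35 ± 0.28 and 0.94 ± 0.53, Hoxb7 at 0.02 ± 0.39 and Hoxb5, with 25 counts in all, at −0.41 ± 0.74.

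As a description with no test, the 6 Hoxb genes summed to 25.5 to 33.4 CPM in T7-RA and 39.9 to 56.4 in T7+RA. They summed to 35.6 to 42.5 CPM in T14-RA and 48.7 to 59.8 in T14+RA. The RA sums lay above the others on each day and overlapped the T0 sums of 46.9 to 52.4 CPM. Of the 6 genes, 5 had an RA change above 0 and 4 were higher with RA on both days.

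**Figure D4:**
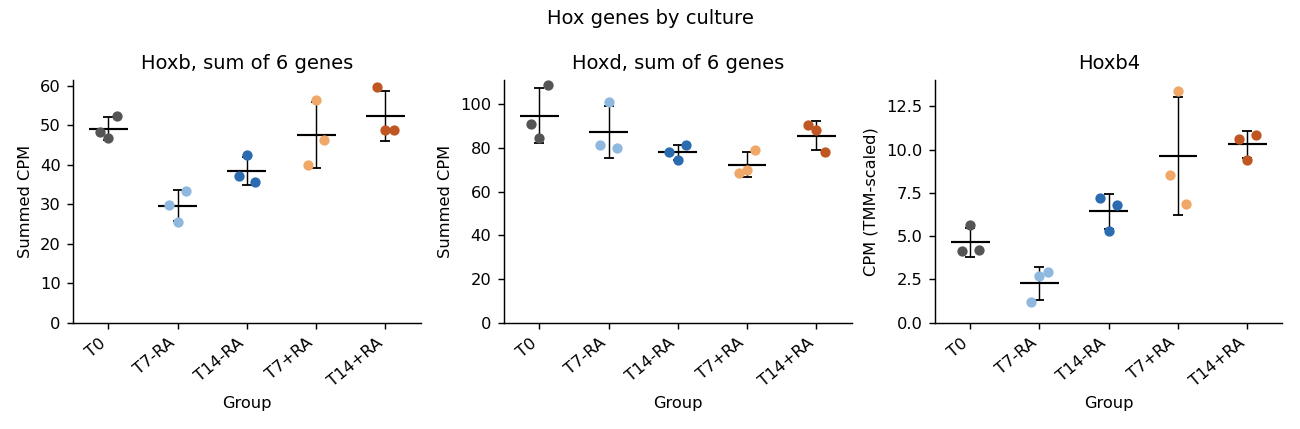
Summed CPM of the 6 Hoxb genes and of the 6 Hoxd genes, and CPM of Hoxb4, in each library (points) by group, with the group mean and SD. The Hoxb sums of the RA groups (39.9 to 59.8) lie above those without RA of the same day, while the Hoxd sums lie below them at day 7 and overlap at day 14.

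The Hoxd sums lay below those without RA at day 7 and overlapped at day 14. They were 79.9 to 101 CPM in T7-RA and 68.4 to 78.8 in T7+RA, then 74.4 to 81.3 in T14-RA and 78.0 to 90.7 in T14+RA, and RA changes were above 0 for 3 of the 6. Hoxd8 was at 0.83 ± 0.35 (adjusted p = 0.11), and the 5′ genes Hoxd9, Hoxd10 and Hoxd13 were at −0.24 ± 0.23, −0.28 ± 0.28 and −0.31 ± 0.23. Hoxd9, with 273 counts, was the most abundant Hox gene, and Hoxd3, with 25, tied with Hoxb5 as the least. Hoxc8 was at −1.47 ± 0.61 (adjusted p = 0.105) and Hoxc6 at −0.25 ± 0.54. Hox genes overlap one another and antisense transcripts, and the strand setting of the counting is not given in the sources used here, so that reads within a cluster may not be told apart.

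The time terms ask what changed in low serum relative to T0 with the RA effect taken out. At day 7, 1 member was raised (against 4.29% of all genes) and 3 were lowered (6.12%, against 4.44%) at an adjusted p of 0.001. At day 14, 2 were raised (4.08%, against 8.47%) and 2 lowered (4.08%, against 8.85%). At an adjusted p of 0.05, 8 members passed at day 7 (16.3%, against 23.1% of all genes), 3 raised and 5 lowered, and 11 at day 14 (22.4%, against 35.4%), 5 raised and 6 lowered. The members' shares at day 14 were below the background in both directions and at both thresholds. Median log2 changes were −0.32 at day 7 and −0.27 at day 14 over the members, and 0.02 and 0.05 over all genes. With library size in place of TMM the all-gene medians became 0.13 and 0.15, and the all-gene split of 496 raised and 514 lowered at day 7 became 648 and 358, that of 980 and 1024 at day 14 became 1221 and 844, and no sign of a named member turned.

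Prrx1 rose relative to T0, by a log2 change of 1.55 ± 0.24 at day 7 (2.93-fold, adjusted p = 1.08e-06) and 2.32 ± 0.23 at day 14 (adjusted p = 1.24e-12). Prrx2 fell at day 7 by 1.10 ± 0.21 on the log2 scale (adjusted p = 7.18e-05). At day 14 the Prrx2 change was −0.54 ± 0.21 (adjusted p = 0.0356), which missed 0.05 in several alternatives, with adjusted p up to 0.198. The day 7 call of Prrx2 was lost without T0 replicate 2 or T7-RA replicate 3, with limma-trend and with counts thinned to the smallest library, with adjusted p up to 0.00242.

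Cux1, a CUT-domain repressor tied to proliferation, and Zfhx3 fell on both days. Without RA, Cux1 measured 146, 93.8 and 145 CPM at T0, 69.2, 77.9 and 81.3 at day 7, and 68.5, 60.2 and 55.9 at day 14. With RA it measured 62.7, 92.6 and 73.7 CPM at day 7 and 79.1, 50.3 and 90.6 at day 14. Every later library lay below every T0 library for Cux1, and the log2 changes were −0.82 ± 0.18 at day 7 (adjusted p = 0.000294) and −0.99 ± 0.18 at day 14 (adjusted p = 1.1e-05).

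Zfhx3 without RA measured 153, 116 and 164 CPM at T0, 60.8, 41.7 and 107 at day 7, and 80.5, 62.0 and 74.5 at day 14. The RA cultures measured 41.3, 57.7 and 60.0 CPM at day 7 and 51.1, 33.0 and 50.8 at day 14. It too stood below T0 in all later libraries, with log2 changes of −1.0 ± 0.20 (adjusted p = 0.000158) and −1.05 ± 0.20 (adjusted p = 4.91e-05). Both day 14 calls were lost without T0 replicate 1, at adjusted p of 0.00131 for Cux1 and 0.0016 for Zfhx3. The day 7 calls were lost without T0 replicate 1, T0 replicate 3 or T7-RA replicate 1, and for Zfhx3 also without T7-RA replicate 2, with adjusted p up to 0.0132 for Cux1 and 0.00382 for Zfhx3. Both were also lost in limma-trend, and that of Cux1 in limma-voom and with library size only. Without T0 replicate 1 no member was called lower at day 14.

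Cux2 went the other way from its paralogue and was called higher at day 14 (adjusted p = 0.000496). With no count in T0, the T14-RA level was at least 5.82-fold higher, against a floor of 3 counts over the T0 group, and the lower end of the 95% counting interval, from 20 against 0 counts, was 4.31-fold. The call rested on 20 counts and was lost without any 1 T0 library, without T14-RA replicate 1 or 3, with either limma form and with thinned counts, with adjusted p up to 0.0047.

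**Figure D5:**
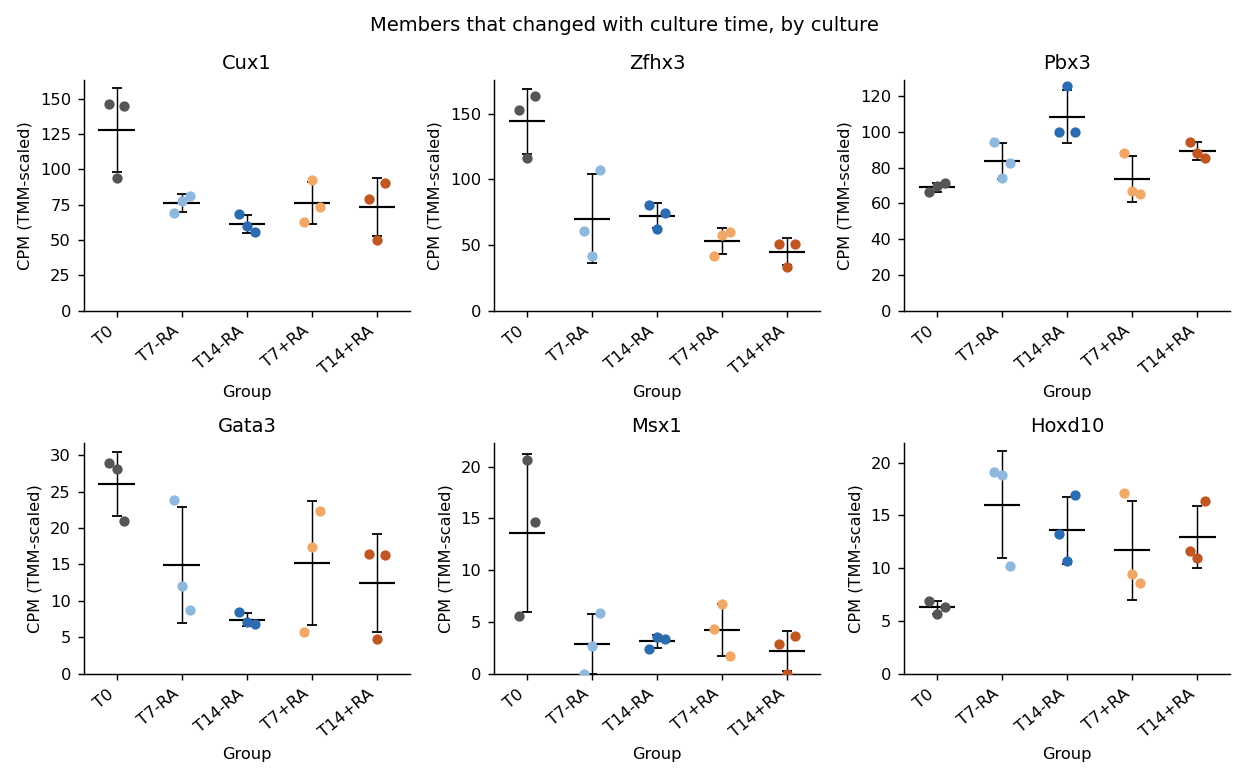
CPM of 6 members in each of the 15 libraries (points), with the group mean and SD, by group. For Cux1 and Zfhx3 all 12 later libraries lie below the 3 T0 libraries, and Pbx3 is highest in T14-RA.

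Further members passed the looser threshold for time and are named after their values were seen. Pbx3 was at 0.63 ± 0.17 at day 14 (adjusted p = 0.00292), from a mean of 69.0 ± 2.6 CPM in T0 to 108 ± 15 in T14-RA (SD, n = 3 libraries). Gata3 was at −1.49 ± 0.40 (adjusted p = 0.00215), and measured 21 to 29 CPM in T0 and 6.77 to 8.41 in T14-RA. Msx1, which holds muscle precursors undifferentiated, was at −2.35 ± 0.68 (adjusted p = 0.00442), and measured 5.52 to 20.6 CPM in T0 and 2.40 to 3.54 in T14-RA. Without T0 replicate 2 its adjusted p was 0.0555.

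Hoxd10 was the Hox gene past the looser threshold for time, at 1.26 ± 0.46 at day 7 and 1.17 ± 0.47 at day 14 (adjusted p = 0.0364 and 0.0439). Its 3 T0 libraries, at 5.63 to 6.90 CPM, lay below all 12 others. Tshz3 was at 1.12 ± 0.31 at day 7 (adjusted p = 0.0055), a value that ran from 0.83 without T0 replicate 2, where the adjusted p was 0.054, to 1.78 without T0 replicate 1. Pbx2 at day 7 was at −0.57 ± 0.21 (adjusted p = 0.0421) and Zfhx2 at day 14 at 1.06 ± 0.40 (adjusted p = 0.0335). These looser calls were lost in some alternatives and with some libraries left out, with adjusted p up to 0.215 and 0.198 for Hoxd10 at day 7 and day 14, 0.335 for Pbx2 (without T0 replicate 3) and 0.322 for Zfhx2 (without T0 replicate 1).

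The summed skeletal muscle marker level differed between the groups, while the fibroblast sums with and without RA overlapped on both days. Of 10 skeletal muscle markers 8 were measured, and their summed level without RA was 244 to 280 CPM at T0, 2165 to 2601 at day 7 and 7629 to 8247 at day 14, against 1167 to 1373 at day 7 and 3353 to 3823 at day 14 with RA. Of 10 cardiomyocyte markers 1 was measured, Gata4 itself, and Nppa, Nppb, Myh6, Myl7, Myl2, Tnni3, Nkx2-5, Ryr2 and Tbx5 were not among the genes analysed. Of the 8 skeletal markers, 4 fell with RA at an adjusted p of 0.001 (Mymk, Actn2, Tnnt3 and Myh3), where 3.07% of all genes did. Log2 changes with RA were −0.30 ± 0.08 for Myog (adjusted p = 0.00501 in edgeR), 0.00 ± 0.24 for Ckm and 0.01 ± 0.23 for Des. Myod1 was higher with RA at day 7 (0.77 ± 0.17, adjusted p = 0.00106 in edgeR) and lay at −0.28 ± 0.20 at day 14. Of 7 fibroblast markers 5 were measured, at 26017 to 38765 CPM at T0, 21810 to 25814 at day 7 and 21009 to 21157 at day 14 without RA, and 22636 to 25760 at day 7 and 18462 to 23495 at day 14 with RA. Postn, Lum and Thy1 of the fibroblast list fell with RA, by 5.46, 1.88 and 0.49 on the log2 scale, and Dcn rose by 1.08. The call of Lum was lost in limma and DESeq2, that of Dcn in limma-trend and DESeq2, and that of Actn2 in limma-trend. Endothelial markers reached 6.29 CPM at most (1 of 5 measured), the epithelial marker Krt8 measured 19.2 to 43.6 CPM (1 of 4), and none of 4 leukocyte markers was measured. The part of these cell states in the changes of Prrx1, Prrx2, Tbx18 and Cux2 was not tested. As a check of the treatment, 4 of 8 measured genes of a retinoid response list rose with RA in edgeR and none fell (5 higher and 1 lower at an unadjusted p under 0.05, and 4 and 0 calls in limma and DESeq2), among them Cyp26b1 and Dhrs3, which clear retinoids, at log2 changes of 8.49 ± 0.23 and 5.22 ± 0.15.

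Genes around these factors were counted from fixed lists. Of 86 further genes listed as homeobox genes 24 were measured. Zhx1, Six4 and Zeb1 were among those that rose at day 14 at an adjusted p of 0.001, where 8.47% of all genes did. Pou2f2 fell, where 8.85% of all genes did. At day 7 Six4 passed, upward, where 4.29% of all genes did.

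Polycomb and Trithorax proteins keep Hox clusters silent or active. Of 41 listed genes 40 were measured, and in edgeR, limma and DESeq2 none passed for RA at an adjusted p of 0.001. At an unadjusted p under 0.05 in edgeR, 2 were higher and 5 lower with RA. At day 14, 2 of the 40 fell and 1 rose at an adjusted p of 0.001, where 8.85% and 8.47% of all genes did. Ezh2, the main H3K27 methyltransferase of dividing cells, and Cbx2 fell by 1.44 ± 0.19 and 1.71 ± 0.36 on the log2 scale. Ezh1, the counterpart of Ezh2 in resting cells, rose by 1.39 ± 0.33. At day 7, 1 of the 40 fell, Kmt2b by 0.73 ± 0.17, and 0 rose, where 4.44% and 4.29% of all genes did.

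Of 23 cofactors and partners of cardiac T-box, GATA and NK factors 19 were measured, and 3 fell with RA in edgeR while none rose (2 to 3 and 0 in limma and DESeq2, and 5 lower and 2 higher at an unadjusted p under 0.05), where 3.07% of all genes fell. Myocd, a coactivator of serum response factor, was at −1.0 ± 0.19 (adjusted p = 3.95e-05). Mef2a and Mef2c, which drive muscle genes with their MADS-box domains, were at −1.0 ± 0.13 (adjusted p = 7.7e-09) and −0.69 ± 0.15 (adjusted p = 0.000482). The call of Mef2c was lost in limma-trend and DESeq2.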

How the data were processed

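RNA of 15 H9c2 samples was sequenced with a TruSeq Stranded mRNA kit on a MiSeq. Per the labels and methods, the authors mapped the reads to Rnor_6.0 with HISAT2 and counted them with featureCounts; versions, annotation release and strand setting are not given in the sources used here. The authors deposited raw counts per gene, not normalized, for 11574 genes with over 20 counts in sum.

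Groups and replicate numbers came from the sample titles. Nothing states that replicates came from separate cultures beyond the word biological, so p-values measure the spread between these samples. No replicate pair agreed within sampling noise in a chi-square test of counts. The members and lists were chosen with earlier results of these data known.

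Counts were fitted over all genes in edgeR 4.0.16 (R 4.3.3; TMM, robust quasi-likelihood F test, Benjamini-Hochberg adjustment), with an additive T7, T14 and RA model and a model of 5 group means. Calls used an adjusted p of 0.001, the study's threshold, and 0.05 for the difference between days. The biological coefficient of variation was 9.81%. The script was tested on simulated data. limma 3.58.1, where the study used limma, DESeq2 1.42.0, other scalings, a filter, thinning, a replicate block and leave-one-out fits were alternatives. Members called for RA or among the largest called time changes were named with all libraries. Promoter windows came from RefSeq. Some items are not reported here.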

Additional observations from a re-analysis of the deposited data

How the results depend on the processing

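No member turned sign in any of 816 values of 36 single-member changes recomputed under 8 alternatives and with each of 15 libraries left out. Of these, 760 stayed on their side of the adjusted p of 0.001, 38 lost the call and 18 gained one. At an adjusted p of 0.05 the counts were 1 raised and 8 lowered with RA, 3 raised and 5 lowered at day 7, 5 raised and 6 lowered at day 14, and 3 and 5 with RA within day 7 and day 14. With limma-trend 0 members were lowered at day 7 (3 in edgeR). Members raised at day 14 numbered 1 with filterByExpr, limma-voom, limma-trend, DESeq2 and thinned counts. Members changed by RA at day 14 numbered 1 with limma-voom. The filter of edgeR removed 22 of the 49 members, Cux2 among them, and DESeq2 gave Cux2 no adjusted p at day 14. In these 2 settings the missing day 14 call of Cux2 was thus a test not made. The cause of the other shifts was not tested. Leaving out 1 library gave 2 to 4 members lowered by RA, 1 to 2 raised and 1 to 3 lowered at day 7, 1 to 2 raised and 0 to 3 lowered at day 14, and 1 to 2 and 1 to 3 changed by RA within day 7 and day 14. The day 7 counts moved most without T0 replicate 1 (2 raised, 1 lowered), T0 replicate 3 or T7-RA replicate 1 (1 lowered each). The day 14 counts moved without any T0 library or T14-RA replicate 1 or 3 (1 raised each) and without T0 replicate 1 (0 lowered). The counts within days moved without T7-RA replicate 3 (2 at day 7) and without T14-RA replicate 1 or 3 or T14+RA replicate 1 or 2 (1 at day 14). The labels tie replicate numbers to no shared batch, and the main fits did not use the numbers as pairs. Same-numbered libraries were more alike on average. Deviations correlated at a mean r of 0.0541 over 30 same-numbered pairs, 8 of them over 0.1, and at −0.0270 over 60 others, 2 of them over 0.1. Of the 15 libraries, 10 correlated best with their own number. With the replicate block 797 genes were called for RA, 1083 at day 7 and 2088 at day 14 (740, 1010 and 2004 without it). Among members the block added 1 call, Prrx1 for RA at day 14, which made 3 members there. Depth limits the 29 members under 10 counts per library: a missed call there does not show an equal level.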
